A study of Mus musculus with 9 samples.

Results

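Retinas of Balb/c mice that received A74 and light damage were compared with retinas of control mice, to describe what still differed from unexposed tissue. The comparison used 3 libraries labelled as A74 with light damage and 3 control libraries, 6 of the 9 in the series, chosen by their labels and not by their values. The other 3 libraries come from light damage alone and are given as levels beside the 2 groups compared. The series concerns how A74 protects the retina in a light damage model, and its title names inhibition of P2RX7. The labels give the tissue as retina for all groups, and the series' design gives the strain as Balb/c. Of A74 they give no identity, dose, route or vehicle, and of the light no intensity, duration or time to harvest. No sex or age is given, and each label in the genotype field only repeats the library's name. They do not say whether a vehicle was given to control mice or whether each replicate is another animal. The p-values then reflect only how far these libraries scatter, part of which may be technical.

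Intense light in albino mice kills photoreceptors, the rods and cones that sense light. The dying cells call up reactive Müller glia, which switch on the filament gene Gfap and trophic factors, and microglia, which clear debris and express complement and antigen presentation genes. P2RX7 is an ion channel opened by extracellular ATP, found on immune and glial cells, and cGAS and STING form a sensor of DNA in the cytosol. Immediate-early genes, such as Fos, Egr1 and the Nr4a family, encode mostly transcription factors that are switched on within minutes of neuronal activity or stress and need no new protein to be induced.

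The 6 libraries held 14787972 to 17202664 counts. Sex-linked transcripts split the groups unevenly. Xist, made from the inactive X chromosome, had 17227 to 18172 counts in the A74 group and 22253 in control 3, against 7 and 1 in controls 1 and 2, which were the libraries with Y-linked counts (4752 and 5832). Summed over 8 genes taken as anterior eye tissue, levels were 197 and 269 CPM (a gene's share of its library's counts after TMM normalisation) in controls 1 and 2 and 136 in A74 replicate 1, against 12.3 to 15.6 in control 3 and A74 replicates 2 and 3. A74 replicate 1 also held 1010 CPM of lens genes, against 38.7 to 167 CPM in the other 5 libraries. Of the controls, control 3 alone matched the A74 group in sex-linked transcripts, and only A74 replicates 2 and 3 matched it in anterior tissue too. Retinal identity was clear in the 6 libraries compared, with the rod-fate factor Nrl at 1934 to 2272 CPM, the cone opsin Opn1mw at 80.8 to 90.6, the ON bipolar receptor Grm6 at 192 to 218, the GABA-synthesising enzyme Gad1 at 342 to 359 and the Müller glia retinal-binding protein Rlbp1 at 419 to 469.

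Few genes were called, and most differed by little. Of 16739 genes tested, 558 were called (3.33%) by edgeR's quasi-likelihood test at a Benjamini-Hochberg adjusted p under 0.05, 319 higher (1.91%) and 239 lower (1.43%) with A74 and light damage. Only 17 of those higher and 10 of those lower differed at least 2-fold, and the median size of a called log2 fold change (A74 over control, with its standard error given as SE) was 0.34. At an unadjusted p under 0.05 there were 3190 genes. For 14678 genes (87.7%) the 95% interval of the difference lay within 2-fold either way. The groups did not overlap for 2155 genes with A74 above and 1750 with A74 below, among them 557 of the 558 called. Lack of overlap in a called gene therefore adds little to its call. DESeq2 on the same libraries called 276 genes higher and 360 lower, so the split between directions depended on the tool. The number of calls also depended on single libraries, with 124 calls without control 1, 141 without control 2, 668 without control 3, 1327 without A74 replicate 1, 77 without A74 replicate 2 and 227 without A74 replicate 3. A term for Y-linked transcripts left 139 calls, and terms for Y-linked transcripts and anterior tissue together gave 1413, of which 403 were among the 558. Only controls 1 and 2 had Y-linked counts, so the fit with the Y term alone estimates the difference from control 3 against the A74 libraries. The fit with both terms estimates it from control 3 against A74 replicates 2 and 3. In both, a single control is assumed to vary as the other libraries do. For a call lost with the Y term, sex-linked differences and the use of 1 control cannot be told apart. The 558 genes kept their direction in each of the 16 alternative fits. With the groups apart for 557 of them, this was nearly fixed beforehand and is no further support.

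A set of 63 genes was called in the fit of 6 libraries and again in each of the 6 fits that left out 1 library, 42 higher and 21 lower. Of the 63, 43 were also called with the Y term, 50 in the fit of all 9 libraries and 62 with both terms. The plot of fold change against level shows how these effects lie around a mass of genes near 0. In the fit of 9 libraries Pcare, Ip6k2, Nr4a1, Slc31a2, Glp2r, Crxos, Pnpla3 and H2bc4 of this set were not called against control. Their edgeR adjusted p there was 0.0546 to 0.208. Results below say where a named gene falls outside the set of 63. Of the called genes named below from outside it, Fos and Dnajb1 kept their call with the Y term, and the others had edgeR adjusted p of 0.0589 to 0.41 there.

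**Figure D1:**
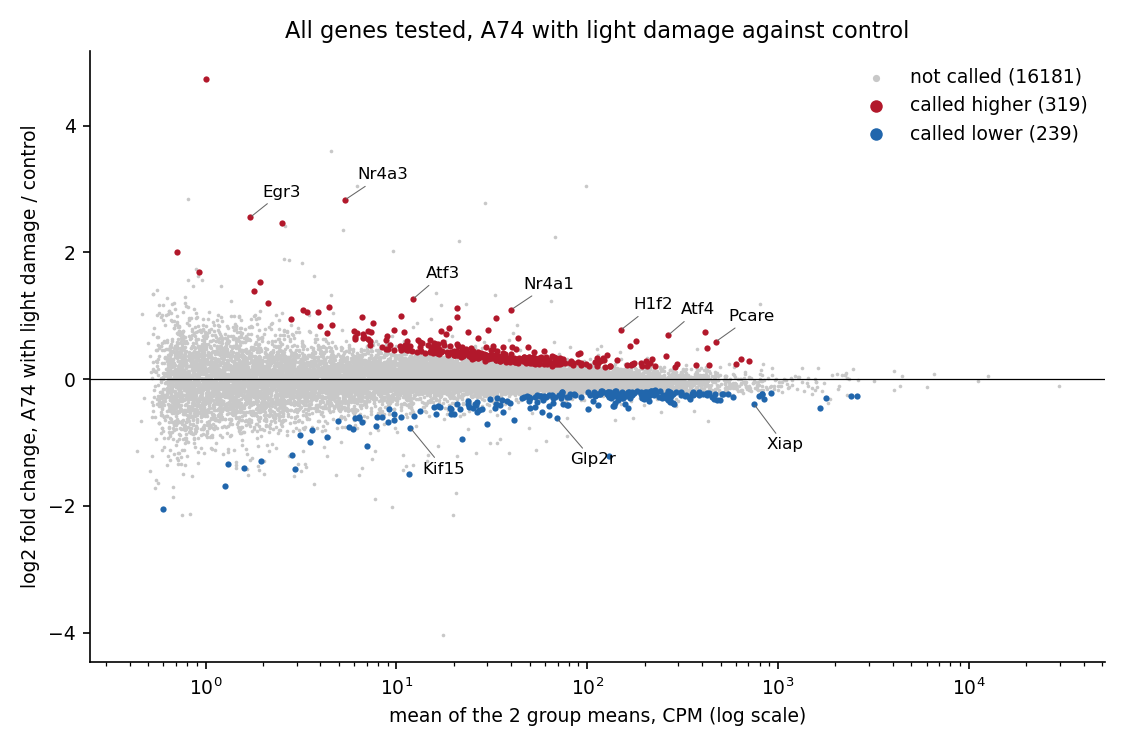
Log2 fold change of A74 with light damage over control (vertical axis) against the mean of the 2 group means in CPM (horizontal axis, log scale) for the 16739 genes tested, 1 point a gene, with the 319 genes called higher in red and the 239 called lower in blue. Nr4a3, at 2.83, and Egr3, at 2.55, stand far above most called genes, and Xiap, at -0.39, lies among the genes called lower at a high level.

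Immediate-early genes gave the clearest difference from unexposed retina. Of 28 tested members, 14 were called higher (50%, against 1.91% of all genes tested) and none lower, with a median log2 fold change of 0.56 against 0.00 over all genes. The list was chosen with earlier results of these data known. Nr4a3, an orphan nuclear receptor, was at 2.14, 0.946 and 0.928 CPM in the controls and at 6.28, 11.4 and 10.5 CPM in the A74 group. The groups did not overlap, and A74 replicate 1, the lowest of its group, was still above each control. Its log2 fold change was 2.83 (SE 0.34, edgeR adjusted p = 0.00371). The libraries of light damage alone lay at 0.891 to 1.56 CPM, overlapping the controls and below each A74 library.

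Egr3, a zinc-finger factor of the Egr family, was at 0.552, 0.414 and 0.530 CPM in controls and at 1.63, 4.42 and 2.75 CPM with A74 and light damage, with log2 fold change 2.55 (SE 0.39, edgeR adjusted p = 0.00168). Its levels were low throughout, but again no A74 library reached down to the controls. With the Y term its edgeR adjusted p was 0.0789, and the call was lost. Atf3, a stress-induced partner of the AP-1 factors, was at 8.56, 6.80 and 6.23 CPM in controls and 15.2, 17.6 and 18.9 CPM in the A74 group (log2 fold change 1.26, SE 0.13, edgeR adjusted p = 2.36e-05). Light damage alone gave 12.2 to 13.7 CPM of Atf3, between the 2 groups. Sik1, a kinase induced by cyclic AMP that restrains CREB-dependent transcription, was at 12.7, 14.01 and 12.5 CPM in controls and 31.9, 28.3 and 25.4 CPM in the A74 group (log2 fold change 1.12, SE 0.10, edgeR adjusted p = 4.37e-06). Nr4a1, a second nuclear receptor of the Nr4a family, was at 27.2, 26.9 and 22.4 CPM against 64.2, 50.3 and 49.3 CPM (log2 fold change 1.10, SE 0.11, edgeR adjusted p = 3.02e-04). For Sik1 and Nr4a1 each A74 library was above each control.

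The AP-1 subunits moved the same way. Junb was at 15.9, 12.2 and 14.1 CPM in controls and 32.3, 26.0 and 24.7 CPM in the A74 group, with log2 fold change 0.98 (SE 0.12, edgeR adjusted p = 2.15e-04), and was at 31.8 to 42.1 CPM in light damage alone, overlapping A74 replicate 1 only. Jun rose by 0.65 and the AP-1 subunit genes Fos and Fosb by 0.96 and 1.05 on the log2 scale. Fos was at 27.2, 21.9 and 18.6 CPM in controls and 50.9, 39.8 and 40.7 CPM with A74 and light damage. Its call was lost without control 2 (edgeR adjusted p = 0.0797) and without A74 replicate 3 (0.0551), and that of Fosb without control 1 (0.0575) and without A74 replicate 2 (0.108). Among the other members called were Per1, a light-inducible clock gene (0.41), the early response gene Ier2 (0.55), the phosphatase gene Dusp1 (0.42), the AP-1 subunit gene Fosl2 (0.75) and Bdnf, which encodes a neurotrophin (0.53). Ier2 lost its call with the Y term (edgeR adjusted p = 0.0549). Jun, Ier2, Dusp1, Fosl2 and Bdnf were named after their values were seen. Dusp1, Fosl2 and Bdnf each lost their call in at least 3 of the 6 fits without 1 library, among them those without control 1, control 2 and A74 replicate 2 (edgeR adjusted p of 0.0733 to 0.158 in those fits).

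Egr1, the most abundant Egr gene here, was not called. It was at 37.1, 16.1 and 17.8 CPM in controls and 142, 98.0 and 93.3 CPM in the A74 group, and the groups did not overlap. Its log2 fold change was 2.25 with a 95% interval from 1.11 to 3.38 and an edgeR adjusted p of 0.0872. In light damage alone it was at 102 to 149 CPM. Egr1 was named after its values were seen, and control 1 was the highest of its controls. Npas4, a factor induced by neuronal activity, had an interval from 0.05 to 0.96 (edgeR adjusted p = 0.21).

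Over the 16 alternatives, 9 to 18 members were called higher in all but the fit asking for at least a 1.5-fold change, which called 3, and no member was called lower in any. The smallest count of the others, 9, came with the term for Y-linked transcripts, and the fits without control 1 and without control 2 each called 10. The list's summed level was 536 to 617 CPM in controls, 839 to 922 CPM in the A74 group and 815 to 904 CPM in light damage alone, so that A74 and light damage alone overlapped in the sum.

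**Figure D2:**
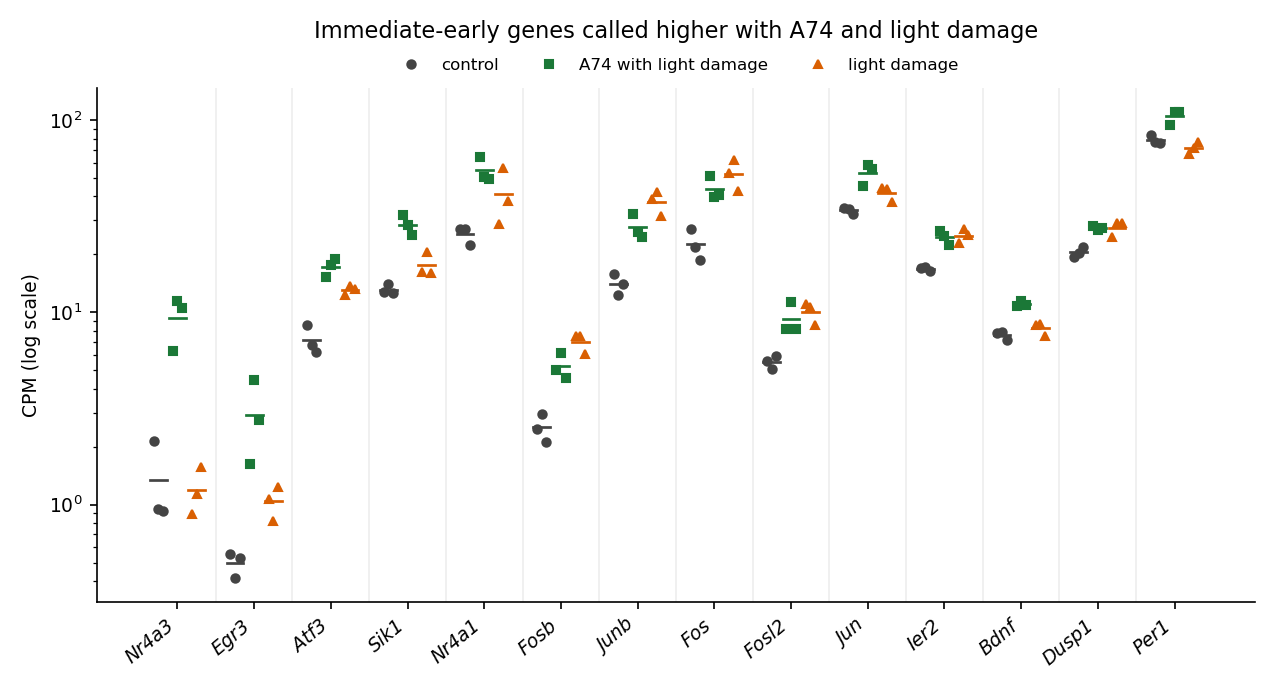
CPM (vertical axis, log scale) of the 14 immediate-early genes called higher, ordered by fold change, 1 point a library and a line at the group mean, in control, A74 with light damage and light damage. A74 points lie above the control points for each gene, and light damage points lie near control for Nr4a3, and for Junb they start at the level of the highest A74 point.

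Promoters of 4 of these genes are shown because the genes moved together and their promoters hold the half-site TGACG of the cyclic AMP response element, the sequence bound by CREB and ATF factors. The sequences are RefSeq promoters of mouse build GRCm38.p6, from 250 bases before to 50 bases after a gene start, and the counts were made on build GRCm39. Each is written 5′ to 3′ on the gene's strand, with the half-site on either strand (TGACG or CGTCA) in capitals. Nr4a3 is chr4:48045055-48045354 (plus strand), Nr4a1 is chr15:101266596-101266895 (plus), Fos is chr12:85473640-85473939 (plus) and Atf3 is chr1:191183284-191183583 (minus).
Nr4a3: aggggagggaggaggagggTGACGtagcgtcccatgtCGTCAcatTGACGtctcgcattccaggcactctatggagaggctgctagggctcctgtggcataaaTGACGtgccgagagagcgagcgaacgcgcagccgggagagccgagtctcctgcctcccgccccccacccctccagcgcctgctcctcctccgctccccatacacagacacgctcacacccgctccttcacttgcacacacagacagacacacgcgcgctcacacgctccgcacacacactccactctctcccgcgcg
Nr4a1: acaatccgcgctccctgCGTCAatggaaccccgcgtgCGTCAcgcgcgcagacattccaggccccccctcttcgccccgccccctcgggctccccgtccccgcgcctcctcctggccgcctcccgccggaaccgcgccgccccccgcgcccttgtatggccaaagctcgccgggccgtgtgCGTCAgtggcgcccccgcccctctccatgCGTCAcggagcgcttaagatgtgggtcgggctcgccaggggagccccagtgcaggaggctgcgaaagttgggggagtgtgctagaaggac
Fos: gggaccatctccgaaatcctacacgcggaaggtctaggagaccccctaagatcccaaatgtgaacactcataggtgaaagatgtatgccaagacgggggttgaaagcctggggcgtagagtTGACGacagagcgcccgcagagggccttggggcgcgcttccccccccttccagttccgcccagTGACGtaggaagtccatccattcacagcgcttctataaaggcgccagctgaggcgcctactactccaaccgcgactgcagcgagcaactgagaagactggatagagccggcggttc
Atf3: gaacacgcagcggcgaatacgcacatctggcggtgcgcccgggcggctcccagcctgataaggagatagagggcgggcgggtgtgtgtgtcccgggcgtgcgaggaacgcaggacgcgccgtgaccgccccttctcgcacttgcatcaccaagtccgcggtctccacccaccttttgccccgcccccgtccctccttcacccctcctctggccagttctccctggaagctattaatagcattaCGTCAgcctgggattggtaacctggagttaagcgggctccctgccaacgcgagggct

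The promoters of Nr4a3 and Nr4a1 each held 4 half-sites, that of Fos 2 and that of Atf3 1. In Nr4a3, 3 of them lie within 231 to 205 bases before the gene start, and in Nr4a1 they lie 233, 213, 69 and 40 bases before it. Of the 14 called immediate-early genes 11 had at least 1 promoter in the table, 18 promoters in all, and 10 of those 18 (55.6%) held the half-site. Of the other motifs below, the same 18 promoters held the metal response motif in 13 (72.2%), the heat shock motif in 3 (16.7%), the interferon-stimulated response element and the E-box in 2 each, the full element and the AP-1 motif in 1 each, and the photoreceptor homeobox motif in none. The half-site occurred in 40.4% of the 297 promoters of genes called higher, 32.6% of the 227 promoters of genes called lower, 29.2% of 15092 promoters of all genes tested and 20.8% of all 32851 promoters in the table. The half-site was searched after the values were seen. The full element TGACGTCA was in 2.69% of promoters of genes called higher and 2.87% of those of all genes tested, and the AP-1 motif TGANTCA in 4.38% and 5.10%. The heat shock motif GAANNTTC was in 8.42% and 5.79%, the E-box CACGTG in 13.5% and 9.40%, the interferon-stimulated response element GAAANNGAA in 9.43% and 6.92%, the metal response motif TGCNCNC in 57.2% and 60.2%, and the photoreceptor homeobox motif TAATCC in 7.41% and 6.10%. Each search covered both strands, the half-site lies within the full element, and a match is a description of the sequence only.

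Genes of stress signalling were called in part. Atf4, the transcription factor at the centre of the integrated stress response, was at 209, 212 and 188 CPM in controls and 307, 340 and 338 CPM in the A74 group. All A74 libraries were well above the controls, and the log2 fold change was 0.69 (SE 0.06, edgeR adjusted p = 1.54e-06). In light damage alone Atf4 was at 198 to 242 CPM. Of the 28 tested genes of the integrated stress and unfolded protein responses, 3 were higher and 1 lower (14.3% called, against 3.33% of all genes tested), with a median of 0.11 against 0.00. Besides Atf4 these were Trib3, a pseudokinase induced by ATF4 (0.71), Herpud1, a component of endoplasmic reticulum protein degradation (0.34), and the cystine transporter gene Slc7a11, an ATF4 target that fell by 0.46 on the log2 scale. Trib3 kept its call in 2 of the 6 fits without 1 library and Slc7a11 in 1, while Herpud1 lost its call without control 1 (edgeR adjusted p = 0.0733) and without A74 replicate 2 (0.103). Trib3 was lost without control 2 (0.186), control 3 (0.0708), A74 replicate 2 (0.203) and A74 replicate 3 (0.132). Slc7a11 kept its call only without A74 replicate 1 (0.00163), the others giving 0.0504 to 0.224. Ddit3, which encodes the stress factor CHOP, was not called (interval 0.06 to 0.38, edgeR adjusted p = 0.116).

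Among heat shock and chaperone genes, 5 of 26 were higher and 1 lower (23.1% called, against 3.33% of all genes tested), with a median of 0.11. Dnajb1, a co-chaperone of HSP70, was at 62.1, 63.1 and 57.5 CPM in controls and 72.0, 77.9 and 80.5 CPM in the A74 group, without overlap (log2 fold change 0.33, SE 0.06, edgeR adjusted p = 0.00687). Hspa8, the constitutive HSP70, rose by 0.29, and Hsph1, its exchange factor, by 0.25. Dnajb1 lost its call only without A74 replicate 2 (edgeR adjusted p = 0.0686). Hspa8 kept its call only without A74 replicate 1, the other 5 fits giving 0.0531 to 0.198. Hsph1 lost its call without control 1 (0.125), control 2 (0.0902), A74 replicate 2 (0.183) and A74 replicate 3 (0.0592). Hspa1b, an inducible HSP70, differed by 0.65 (edgeR adjusted p = 7.25e-04), but its near-identical copy Hspa1a, at 0.20, was not called, and how reads were divided between the copies is uncertain. Over the fits without 1 library the list had 1 to 8 genes called higher, 1 without A74 replicate 2 and 8 without A74 replicate 1. It had 2 without control 1, without control 2 and without A74 replicate 3, and 3 without control 3.

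Outside these lists, several abundant genes separated the groups with little scatter. H1f2, a linker histone, was at 102, 110 and 119 CPM in controls and 189, 185 and 193 CPM in the A74 group, and at 72.3 to 107 CPM in light damage alone. Its A74 levels were above those of each library of the other 2 groups, with a log2 fold change over control of 0.77 (SE 0.06, edgeR adjusted p = 3.02e-07). Pcare, a photoreceptor actin-binding protein needed for outer segment disc formation, was at 386, 369 and 376 CPM in controls and 546, 584 and 572 CPM in the A74 group (log2 fold change 0.59, SE 0.05, edgeR adjusted p = 4.37e-06). It was at 260 to 438 CPM in light damage alone, and no library of that group reached the A74 levels. Ip6k2, an inositol hexakisphosphate kinase, was at 301, 285 and 342 CPM against 555, 494 and 509 CPM (log2 fold change 0.75, SE 0.07, edgeR adjusted p = 6.07e-06). Usp2, a clock-controlled deubiquitinase, was at 133, 139 and 137 CPM against 194, 198 and 198 CPM (log2 fold change 0.53, SE 0.05, edgeR adjusted p = 4.37e-06). For both, the groups were far apart compared with the scatter within them. Smaller or less abundant changes of the same kind were those of Zfp36l2, an RNA-binding protein that destabilises messages (0.60), Mafk, a small Maf factor (0.89), Cdt1, a replication licensing factor (0.99), and Arrdc2, an arrestin-domain gene (1.00). Lpcat1, the lipid-remodelling acyltransferase of photoreceptors, rose by 0.36 and the copper transporter gene Slc31a2 by 0.32, both named after their values were seen. With the Y term the calls of Mafk (edgeR adjusted p = 0.0502), Arrdc2 (0.106) and Slc31a2 (0.0589) were lost.

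For some of these genes A74 was also above light damage alone, in a fit of all 9 libraries that called 3153 of 17272 genes (18.3%) between those 2 groups. Log2 fold changes of A74 over light damage alone were 2.98 for Nr4a3 (edgeR adjusted p = 9.37e-05), 1.06 for H1f2 (7.34e-04), 0.57 for Atf4 (1.52e-04), 0.56 for Per1 (1.52e-04), 0.70 for Sik1 (8.63e-04), 0.48 for Usp2 (6.21e-04) and 0.73 for Pcare (0.0165). Nr4a1 and Ip6k2 were not called there, at 0.41 (edgeR adjusted p = 0.32) and 0.68 (0.0756). Against control, that fit of 9 libraries did not call Pcare (edgeR adjusted p = 0.147), Nr4a1 (0.14) or Ip6k2 (0.182). The comparison with light damage alone shares the A74 libraries with the comparison against control. The A74 group had 17227 to 18172 counts of Xist and light damage alone at most 4. Sex-linked transcripts and A74 therefore cannot be told apart between those 2 groups. Light damage replicates 1 and 2 had 4249 and 5710 Y-linked counts. Replicate 3 of that group had 0 Y-linked counts and 1 count of Xist, and so matched neither pattern.

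Genes lower than control were mostly lowered by less than 1.5-fold. Xiap, an inhibitor of caspases, was at 881, 868 and 783 CPM in controls and 659, 636 and 641 CPM in the A74 group, with log2 fold change -0.39 (SE 0.06, edgeR adjusted p = 0.00128). Glp2r, the receptor of a gut hormone, was at 88.4, 84.3 and 80.3 CPM against 59.6, 48.1 and 56.8 CPM (log2 fold change -0.62, SE 0.07, edgeR adjusted p = 1.49e-04). Crxos, a transcript opposite the photoreceptor factor gene Crx, was at 58.6, 58.0 and 58.0 CPM against 47.5, 40.6 and 39.8 CPM (log2 fold change -0.45, SE 0.07, edgeR adjusted p = 0.00188). No A74 library overlapped a control for these 3 genes, and whether the counting separated Crxos from Crx by strand is not given. In light damage alone they were lower or as low, at 510 to 605 CPM for Xiap, 41.5 to 60.2 for Glp2r and 23.6 to 34.3 for Crxos.

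Further genes that fell were Pnpla3, a lipid droplet hydrolase gene (-0.65), Zfc3h1, a factor of nuclear RNA decay (-0.46), Rab30, a Golgi GTPase gene (-0.42), Pde7a, a cyclic AMP phosphodiesterase gene (-0.41), Trib1, a pseudokinase gene (-0.41), and Kif15, a mitotic kinesin gene (-0.77). Their light damage levels were also below the controls. Kif15 was the 1 gene of the set of 63 that was not called with both terms in the model (edgeR adjusted p = 0.0647). With the Y term alone the calls of Pnpla3 (0.0604), Trib1 (0.0905) and Kif15 (0.165) were lost.

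**Figure D3:**
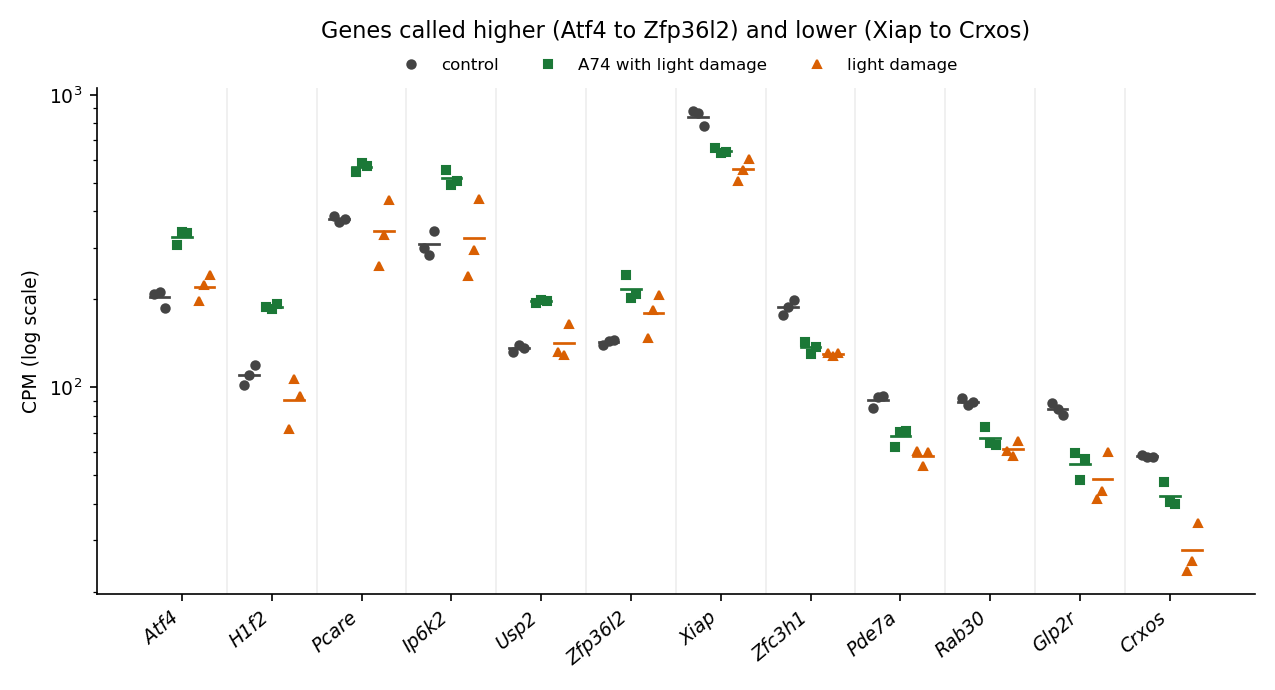
CPM (vertical axis, log scale) of 6 genes called higher and 6 called lower, 1 point a library and a line at the group mean, in control, A74 with light damage and light damage. H1f2 in the A74 group is at 185 to 193 CPM, above both other groups, while Xiap in the A74 group is at 636 to 659 CPM, between controls and light damage.

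Cytosolic ribosomal protein genes were slightly higher. Of 51 tested, 13 were called higher (25.5%, against 1.91% of all genes) and none lower, with a median of 0.18. Rpl38, a subunit of the large ribosomal particle, was at 13.7, 11.9 and 12.5 CPM in controls and 21.0, 22.5 and 20.9 CPM in the A74 group (log2 fold change 0.76, SE 0.10, edgeR adjusted p = 3.37e-04). All A74 libraries were above the controls and below light damage alone, at 23.3 to 27.7 CPM. Rps21 rose by 0.50, from 33.4, 37.1 and 29.7 CPM to 44.1, 50.3 and 47.5 CPM, and Rpl37 by 0.44. Ribosomal protein genes took 0.789% to 0.893% of all counts in controls, 0.977% to 1.00% in the A74 group and 1.05% to 1.17% in light damage alone. The count of called members ranged from 0 with a 1.5-fold minimum to 42 with both terms, and was 4 without A74 replicate 2, 6 without control 1, 6 without A74 replicate 3 and 8 without control 2. These genes have many processed pseudogenes, between which reads can be divided.

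Genes of glial reaction were close to unexposed retina, and microglia markers leaned higher, with a summed level far below light damage alone. Gfap was at 17.9, 23.1 and 22.3 CPM in controls and 16.1, 18.5 and 16.7 CPM in the A74 group, against 53.1 to 133 CPM in light damage alone. The A74 group overlapped the controls at the low end, and the log2 fold change was -0.31 with a 95% interval from -0.53 to -0.08 (edgeR adjusted p = 0.126). Of 23 tested genes of reactive gliosis and neurotrophic response, 1 was called higher (4.35%, against 1.91% of all genes tested) and none lower. Their median was 0.03, and for 20 the interval lay within 2-fold. The called member was Edn2, which encodes the endothelin that stressed photoreceptors release, at 4.70, 5.14 and 4.44 CPM in controls, 6.34, 9.13 and 6.73 CPM in the A74 group and 27.4 to 33.2 CPM in light damage alone. Each A74 library was above the controls and far below light damage (log2 fold change over control 0.64, SE 0.17, edgeR adjusted p = 0.0469). This call was kept only without A74 replicate 1 (0.0145), the other 5 fits without 1 library giving 0.0758 to 0.313. Fgf2, a survival factor of photoreceptors, was at 33.3, 32.6 and 34.7 CPM in controls and 25.7, 45.0 and 41.6 CPM in the A74 group, which scattered to both sides (interval -0.43 to 0.75, edgeR adjusted p = 0.77). Lif, a cytokine gene upstream of the Müller glia response, was under the count filter.

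Of 23 tested microglia and macrophage markers, 1 was called higher (4.35%, against 1.91% of all genes tested) and none lower. Their median was 0.21, and 20 lay above 0. The interval lay within 2-fold for 15 of the 23, against 87.7% of all genes tested. C1qc, a chain of the complement initiator C1q, was at 2.55, 1.60 and 2.12 CPM in controls, 3.52, 5.83 and 3.92 CPM in the A74 group and 17.0 to 34.8 CPM in light damage alone. It was above each control in the A74 group (log2 fold change 1.09, SE 0.25, edgeR adjusted p = 0.0225), and its call was lost without control 1 (0.0557), control 2 (0.122) and A74 replicate 2 (0.203). The other C1q chains were not called, C1qa with an interval from 0.23 to 0.90 (edgeR adjusted p = 0.0585) and C1qb from 0.22 to 1.16 (0.0967). Trem2, a microglial lipid receptor, was at 1.59, 1.71 and 1.32 CPM in controls and 1.70, 2.48 and 2.55 CPM in the A74 group, which overlapped (interval -0.05 to 1.11, edgeR adjusted p = 0.309). The homeostatic markers Cx3cr1 and Tmem119 had intervals of -0.39 to 0.40 and -0.96 to 0.22. In bulk tissue fewer cells of a type and less RNA per cell cannot be told apart. The markers summed to 270 to 317 CPM in controls and 296 to 363 CPM in the A74 group, which overlapped, against 871 to 1435 CPM in light damage alone. With the Y term and with both terms the median of the microglia markers was 0.32 and 0.34. Without A74 replicate 1, 3 markers were called higher, in a fit that called 621 of 16988 genes higher. The count was 1 without control 3 and 1 without A74 replicate 3. No marker was called by DESeq2, in the fit of 9 libraries, without control 1, without control 2 or without A74 replicate 2. In the fit without A74 replicate 2 their median was 0.07.

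Complement genes beyond C1q included C3ar1, the C3a receptor gene, at 0.138, 0.532 and 0.133 CPM in controls, 0.816, 1.24 and 1.37 CPM in the A74 group and 8.07 to 20.4 CPM in light damage alone. It was above the controls in each A74 library at very low levels (log2 fold change 2.01, SE 0.51, edgeR adjusted p = 0.0348), and kept its call only without control 2 and without A74 replicate 1, the other fits giving 0.0897 to 0.18. In all, 2 of 15 complement genes were called higher (13.3%, against 1.91% of all genes tested), with a median of 0.07. The interval lay within 2-fold for 5 of the 15, against 87.7% of all genes tested. DESeq2 gave no adjusted p for either of the 2 called. Of 15 antigen presentation genes, B2m, the light chain of MHC class I, was the only one called (6.67%, against 3.33% of all genes tested). It was at 13.9, 13.9 and 12.2 CPM in controls, 18.6, 20.3 and 17.2 CPM in the A74 group and 51.5 to 150 CPM in light damage alone (log2 fold change over control 0.49, SE 0.11, edgeR adjusted p = 0.0193). No A74 library of B2m overlapped a control, and the call was lost without control 1 (0.0675), control 2 (0.0660) and A74 replicate 2 (0.152). H2-D1, a class I heavy chain, was at 17.3, 18.7 and 20.1 CPM in controls and 91.3, 27.5 and 21.7 CPM in the A74 group, where replicate 1 stood apart (interval -0.58 to 3.22). It was named after its values were seen, and its near-identical class I relatives make its count uncertain.

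None of 27 tested interferon-stimulated genes was called by edgeR or DESeq2, with a median of 0.11 and 22 intervals within 2-fold. At an unadjusted edgeR p under 0.05 there were 3, against 3190 of all 16739 genes tested. Oasl2, induced by interferon, was at 1.93, 1.24 and 1.86 CPM in controls and 4.58, 2.77 and 2.22 CPM in the A74 group, against 13.2 to 120 CPM in light damage alone. The A74 libraries were above the controls, but Oasl2 was not called (interval 0.32 to 1.55, edgeR adjusted p = 0.0841). The summed level of the list was 186 to 196 CPM in controls, 207 to 210 CPM in the A74 group and 302 to 1155 CPM in light damage alone.

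**Figure D4:**
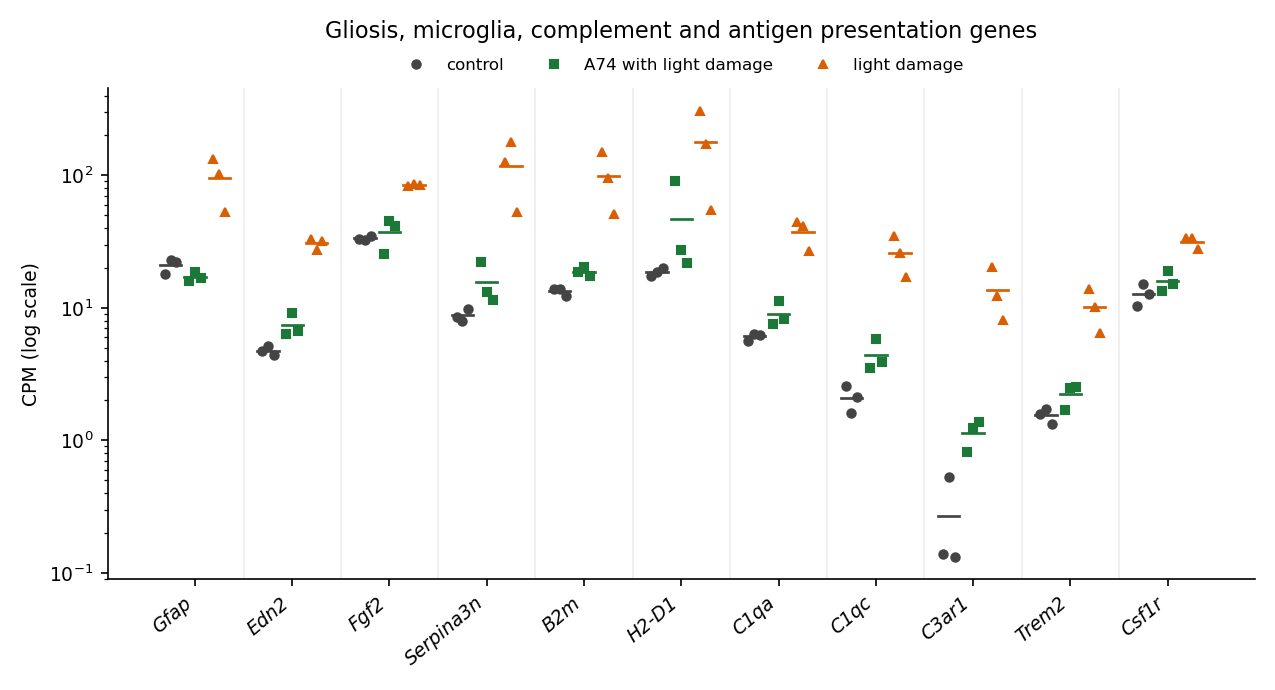
CPM (vertical axis, log scale) of genes of gliosis, microglia, complement and antigen presentation, 1 point a library and a line at the group mean, in control, A74 with light damage and light damage. A74 points lie close to control points and below the light damage points for most genes. H2-D1 in A74 replicate 1, at 91.3 CPM, reaches into the light damage range.

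Genes of the pathways in the study's title were mostly low in the retina. P2rx7 was at 0.207, 0.709 and 0.464 CPM in controls, 0.502, 0.825 and 0.588 CPM in the A74 group and 1.04 to 2.14 CPM in light damage alone. With at most 14 counts in the 6 libraries it was under the count filter. In the fit without that filter it was not called, with log2 fold change 0.45, a 95% interval from -0.57 to 1.46 and an edgeR adjusted p of 0.698. Cgas, which encodes the DNA sensor, had at most 16 counts and was left out in the same way, with an interval from -1.72 to 0.52 in the fit without the filter (edgeR adjusted p = 0.685). Sting1 was at 1.31, 1.24 and 0.530 CPM in controls and 0.816, 0.648 and 1.18 CPM in the A74 group, overlapping, with an interval from -1.08 to 0.61 (edgeR adjusted p = 0.803). Better measured members were tighter: Tbk1, the kinase downstream of STING, had an interval from -0.07 to 0.21 and Irf3, its target, one from -0.06 to 0.22. None of 9 cGAS-STING genes and none of 6 inflammasome and pyroptosis genes was called by edgeR or DESeq2, nor did any reach an unadjusted edgeR p under 0.05. The inflammasome genes Nlrp3, Casp1 and Il1b had at most 7 counts in any of the 6 libraries and were not tested. Of 20 purinergic genes, Nt5e alone was called (5%, against 3.33% of all genes tested). It encodes CD73, the rod-enriched enzyme that makes adenosine from AMP, and was at 303, 315 and 289 CPM in controls, 242, 227 and 254 CPM in the A74 group and 127 to 193 CPM in light damage alone. The groups did not overlap (log2 fold change -0.33, SE 0.05, edgeR adjusted p = 0.00257), and the call was lost only without A74 replicate 2 (0.0580).

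Rod genes were near control levels, with small differences that leaned lower and a few that were higher. Nrl, the factor that sets rod fate, was at 2272, 2245 and 1995 CPM in controls and 2123, 1934 and 1950 CPM in the A74 group, against 1089 to 1623 CPM in light damage alone. The A74 group overlapped the controls, with an interval of the log2 fold change from -0.25 to 0.02. Of 34 tested rod genes, 2 were higher and 3 lower (14.7% called, against 3.33% of all genes), with a median of -0.12, and 32 intervals lay within 2-fold. Of the 34, 8 lay above 0. The groups were apart with A74 above for 3 and with A74 below for 11, against 2155 and 1750 of all 16739 genes. DESeq2 called 2 rod genes higher and 8 lower, against 276 and 360 of all 16739. The higher genes were the rod-fate regulators Nr2e3 (0.31) and Samd7 (0.28). Samd7 was at 185, 176 and 192 CPM in controls, 233, 212 and 226 CPM in the A74 group and 117 to 166 CPM in light damage alone, so the A74 group stood above both (edgeR adjusted p = 0.00743 against control). The lower genes were Rpgrip1, a connecting cilium scaffold (-0.27), Gucy2f, a guanylate cyclase of the outer segment (-0.38), and Pdc, which encodes the transducin partner phosducin (-0.26, named after its values were seen). Samd7 lost its call without control 1 (0.0517) and control 2 (0.0734), and Nr2e3 kept its call only without A74 replicate 1, the others giving 0.108 to 0.18. Rpgrip1 and Pdc kept theirs only without control 3 and without A74 replicate 1, the others giving 0.0728 to 0.174 for Rpgrip1 and 0.148 to 0.294 for Pdc. Gucy2f was lost without control 1 (0.111), control 2 (0.0951) and A74 replicate 2 (0.135). Rpgrip1 was at 919, 848 and 840 CPM in controls, 764, 688 and 707 CPM in the A74 group and 477 to 573 CPM in light damage alone, 3 ranges without overlap. Without control 1, without control 2 and without A74 replicate 2 the list had 0, 0 and 1 genes called higher and none lower, while without A74 replicate 1 it had 3 higher and 9 lower and without control 3 it had 1 higher and 7 lower. Without A74 replicate 3 it had 1 of each.

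Of 40 genes of the photoreceptor cilium, 1 was called (2.5%, against 3.33% of all genes tested). It was Fam161a, a centriole and cilium protein gene, at -0.29 (edgeR adjusted p = 0.00767). Its call was lost without control 1 (0.0746) and A74 replicate 2 (0.116). Among 32 synaptic genes 3 were lower (9.38%, against 1.43% of all genes tested), the vesicle priming genes Unc13a (-0.25) and Unc13b (-0.26) and Dmd, which encodes dystrophin of the photoreceptor terminal (-0.28), with a list median of -0.05. These calls were also lost without A74 replicate 2, where no synaptic gene was called, and without control 2 and A74 replicate 3, where none was called either, and without control 1 only Dmd was called (0.0287). Of 15 cone genes only Gngt2, the cone transducin gamma subunit, was called (6.67%, against 3.33% of all genes tested), at 0.40. It lost its call without control 1 (0.0733), control 2 (0.0716) and A74 replicate 2 (0.151). The cone opsins had intervals from -0.08 to 0.16 (Opn1mw) and -0.23 to 0.04 (Opn1sw).

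Inner retinal neurons and Müller glia showed few calls. The shares called were 10.5% of bipolar, 5.56% of amacrine, 5.88% of ganglion cell and 5.56% of Müller glia genes, against 3.33% of all genes tested. Bipolar cell genes had 1 higher (Pcp2, 0.25) and 1 lower (Isl1, -0.24) of 19, amacrine genes 1 higher of 18 (the gap junction gene Gjd2, 0.25), ganglion cell genes only Isl1 of 17, which stands in both lists, and Müller glia genes 1 higher of 18 (Crym, a thyroid hormone binder, 0.39). Pcp2, Isl1, Gjd2 and Crym each lost their call without control 1 (edgeR adjusted p of 0.118 to 0.134) and without A74 replicate 2 (0.106 to 0.208). None of 6 horizontal cell genes, 9 astrocyte genes, 18 endothelial genes and 15 pigment epithelium genes was called by edgeR. Of them 1, 1, 3 and 3 reached an unadjusted edgeR p under 0.05, against 3190 of all 16739 genes tested. DESeq2 called 1 astrocyte gene, 1 endothelial gene and 2 pigment epithelium genes, all lower, against 360 lower of all 16739. None of these lists had a median beyond 0.1 either way but the pigment epithelium, at -0.29. Its summed level was 651 to 860 CPM in controls and 652 to 711 CPM in the A74 group, and its part in any result was not tested.

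Of the clock genes 3 of 26 were higher (Usp2, Per1 and Dbp) and 2 lower (the nuclear receptor genes Rora, -0.27, and Rorb, -0.33), 19.2% against 3.33% of all genes tested, with a median of 0.01. Rora, Rorb and Dbp were called again only without A74 replicate 1, the other 5 fits giving 0.0509 to 0.226. The times at which retinas were taken are not given. Nfkbia, the inhibitor that NF-kB itself induces, was the only called gene of 13 in the cytokine and NF-kB list (7.69%, against 3.33%), at 0.57. Its call was lost without control 1 (0.0862), control 2 (0.0544) and A74 replicate 2 (0.14). Mt1, a metallothionein gene, was at 17.1, 16.7 and 17.1 CPM in controls and 18.3, 25.7 and 24.4 CPM in the A74 group, above the controls (log2 fold change 0.43, edgeR adjusted p = 0.0471). It was called again only without A74 replicate 1, the other fits giving 0.0808 to 0.285, and was at 49.5 to 50.7 CPM in light damage alone. None of 18 cell death genes, 14 p53 targets, 16 cell cycle genes, 26 cholesterol genes and 33 genes of the mitochondrial respiratory chain was called by edgeR. Of them 3, 2, 3, 5 and 9 reached an unadjusted edgeR p under 0.05, against 3190 of all 16739 genes tested. DESeq2 called 1 cholesterol gene and 3 respiratory chain genes, against 636 of all 16739. Of the 33 respiratory chain genes 29 lay above 0. These counts hold for listed members only. Xiap, Cdt1 and Kif15, called above, are on none of these lists. Nor is the cytochrome oxidase-like gene Cox7a2l, called at 0.33 (edgeR adjusted p = 0.00168) and named after its values were seen.

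**Figure D5:**
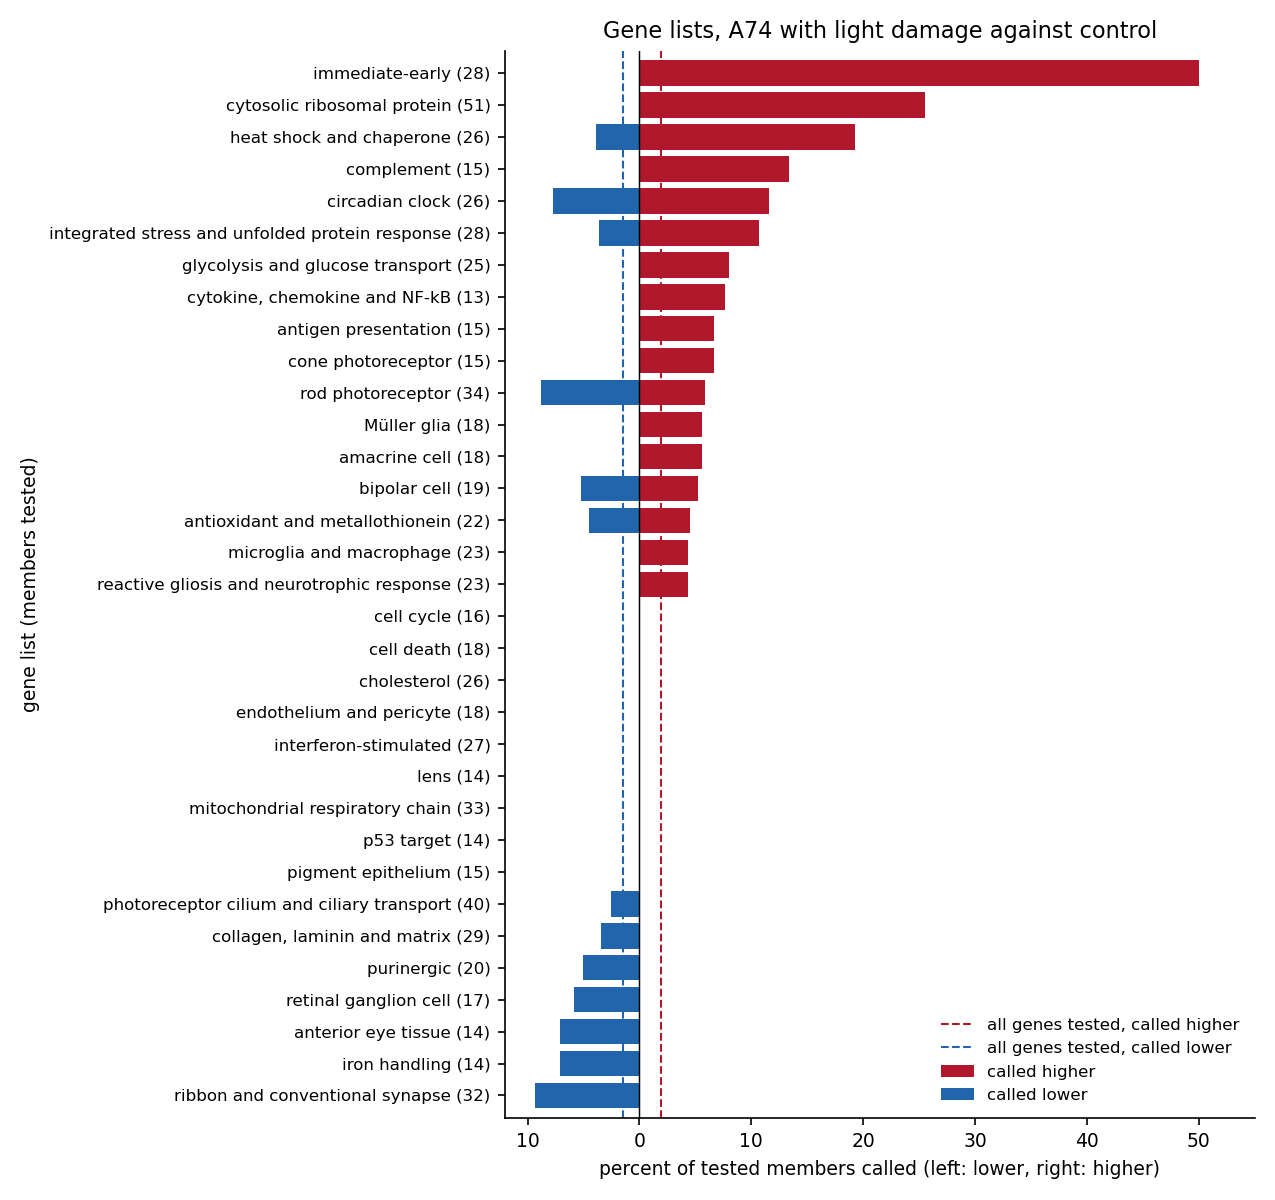
Percent of tested members called higher (right, red) and lower (left, blue) with A74 and light damage against control, for each list with at least 10 tested members, whose number stands after its name. Dashed lines mark 1.91% higher and 1.43% lower, the shares over all genes tested. Immediate-early genes, at 50% higher, and ribosomal protein genes, at 25.5%, reach farthest to the right.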

How the data were processed

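RNA from mouse retina was sequenced in 9 libraries, and 6 were compared here, 3 control and 3 of A74 with light damage, grouped by their titles. The authors deposited 1 table of unnormalised read counts for 55414 genes. Per the submitters' processing notes, RSEM 1.3.1, Bowtie2, DESeq2 1.4.5 and build GRCm39 are listed, with no role given. Not given in the sources used here are the annotation release, the use of strand and any rounding of RSEM estimates, so near-identical, overlapping and antisense genes are uncertain.

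Genes were kept by filterByExpr with a minimum count of 10, scaled by TMM and tested by the robust quasi-likelihood test of edgeR 4.0.16 (R 4.3.3), in 1 fit of the 6 libraries without covariates, with Benjamini-Hochberg adjustment over all 16739 genes. Each adjusted p is from this test unless another tool or fit is named. SEs and 95% intervals of log2 fold changes come from that fit. Levels are CPM with TMM factors. Light damage libraries were put on the same scale, and log2 CPM used a prior count of 2. The script was tested on simulated data. DESeq2 1.42.0, other scalings, filters, terms, the replicate number as a block, and leaving out each library were alternatives.

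Members and all 42 lists were chosen with earlier results of these data known. Lists are described by counts and medians, with no test of a list. Named genes are the 15 largest fold changes and the 10 smallest adjusted p in each direction among called genes whose groups did not overlap and with a mean of 2 CPM or more in either, the 10 largest in each direction also called with both terms, up to 4 members of a list by adjusted p, and 15 genes of prior interest. Predicted, sex-linked and near-identical genes were left out of the first 3, and which copies are near-identical was decided after the values were seen. The set of genes called in each fit without 1 library was also chosen after the values were seen. Batch labels give the same date for all libraries. Some genes named beside a list are outside the rule: Pdc, Egr1, Npas4, Ddit3, Hspa1a, H2-D1, Lpcat1, Slc31a2, Jun, Ier2, Dusp1, Fosl2, Bdnf, Cox7a2l, and markers without a call. Some results are not reported here.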

Additional observations from a re-analysis of the deposited data

How the results depend on the processing

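Against 558 calls (319 higher, 239 lower) in the fit described, DESeq2 size factors in edgeR gave 559 (295 and 264), DESeq2 636 (276 and 360), no count filter 1142 (580 and 562), 1 fit of all 9 libraries 154 (102 and 52), and a 1.5-fold minimum 6 (5 and 1). A term for Y-linked transcripts gave 139 (103 and 36), a term for anterior tissue 832 (466 and 366), both 1413 (728 and 685), and only the libraries without Y-linked counts and low in anterior tissue 1344 (698 and 646), where the single control is assumed to vary as the A74 libraries do. Leaving out 1 library gave 77 to 1327 calls in total, 51 to 621 higher and 26 to 706 lower, with the fewest without A74 replicate 2 and the most without A74 replicate 1. With the replicate number as a block (replicate block) the calls were 1143 (570 higher and 573 lower). The numbers share no stated animal or day, and deviations of libraries with the same number correlated at 0.08, -0.11 and 0.17. Not every library correlated best with its own number, so the block is a check only. The cause of these shifts was not tested.

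Of the 84 named genes called, 83 stayed called with DESeq2 size factors, 84 with no filter, 83 with the block, 35 in the fit of 9 libraries, 3 with the 1.5-fold minimum, 29 with the Y term, 81 with the anterior term and 67 with both. DESeq2 called 68 of the 70 it gave an adjusted p. Without 1 library 35 to 81 stayed called. None reversed, which was nearly fixed beforehand, since the groups did not overlap for nearly all called genes. P2rx7 and Cgas, with at most 14 and 16 counts in the 6 libraries, were compared only without the count filter, where their 95% intervals (-0.57 to 1.46 and -1.72 to 0.52) reached past 2-fold.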

Other observations

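Several histone genes besides H1f2, a group formed after the values were seen, were called higher. Of 22 tested, 7 were called higher (against 1.91% of all genes tested) and none lower, with a median log2 fold change of 0.46 against 0.00 over all genes tested. H4c3, a core histone gene, was at 1.52, 2.66 and 2.39 CPM in controls, 4.96, 5.13 and 3.66 CPM with A74 and light damage and 1.89 to 2.16 CPM in light damage alone. Its groups did not overlap (log2 fold change 1.06, SE 0.24, edgeR adjusted p = 0.0205). H2bc4 rose by 0.35, from 47.7, 51.2 and 52.1 CPM to 63.0, 63.4 and 66.9 CPM, and kept its call in each fit without 1 library, as H1f2 did. With the Y term only H1f2 of the 7 stayed called, H2bc4 having an edgeR adjusted p of 0.103 and the others 0.126 to 0.351. The others were H2bc6 (0.48), H4c14 (0.75), H2ac6 (0.60) and H1f4 (0.86), each called in 2 or 3 of the 6 fits without 1 library and lost without control 1, without control 2 and without A74 replicate 2 (edgeR adjusted p of 0.0539 to 0.168 there). H2ac6 and H1f4 were also lost without A74 replicate 3 (0.081 and 0.158). H4c3 was lost without control 1 (edgeR adjusted p = 0.125) and without A74 replicate 2 (0.15).

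Transcripts that the table classes as TEC, loci whose coding status is still to be tested, leaned the other way, a group also chosen after the values were seen. Of 445 tested, 15 were called lower (3.37%, against 1.43% of all genes) and 2 higher, with a median of -0.14. Gm47160 was at 176, 186 and 186 CPM in controls, 81.7, 70.0 and 83.5 CPM with A74 and light damage and 68.0 to 80.5 CPM in light damage alone. The A74 libraries lay far below the controls (log2 fold change -1.22, SE 0.06, edgeR adjusted p = 1.27e-09), and within or near the range of light damage alone. TEC transcripts took 0.275% to 0.29% of all counts in controls, 0.237% to 0.249% in the A74 group and 0.219% to 0.23% in light damage alone.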
